A study of Homo sapiens with 21 samples.

Results

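The comparison described here is between 2 clones of SUM149PT, an inflammatory breast cancer line labelled as lacking estrogen and progesterone receptor: clone EM3, taken as an intermediate between epithelial and mesenchymal cells, and clone E, taken as epithelial. The labels give the clone names without spelling them out. The members of the comparison are the 3 EM3 and 3 E libraries, 6 of the 21 libraries of the study. The labels gave both clones the same origin, the same growth conditions and no treatment, so that the clone was the only labelled difference. RNA with a poly(A) tail was sequenced. The other 15 libraries were 3 each of the uncloned parental line and of clones EM1, EM2, M1 and M2, and they served to estimate the spread and, in places, as reference levels. Each clone is 1 isolate of the line, so a difference between EM3 and E is a difference between 2 lineages. Whether the 3 libraries of a clone came from separate cultures is not stated, and the p-values therefore measure only the spread between these libraries.

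Epithelial cells are held together by tight junctions, adherens junctions and desmosomes, and their cytoskeleton is built from keratins. In an epithelial-mesenchymal transition, transcription factors of the ZEB, SNAI and TWIST families repress many of these genes, while vimentin, a filament protein of mesenchymal cells, and matrix proteins are turned on. Carcinoma cells often stop part of the way and carry products of both states, and such cells are called intermediate or hybrid.

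Totals were 44.2, 48.1 and 48.1 M (mega) expected counts in the E libraries and 40.7, 38.1 and 42.0 M in the EM3 libraries. The mean effective length of genes at 1 TPM or more (TPM, RSEM's level corrected for gene length and depth) was 1751 to 1765 bases in E, 1968 and 1955 bases in EM3 replicates 1 and 2, and 1777 bases in EM3 replicate 3. EM3 replicate 3 was therefore the EM3 library nearest to E in this measure. Weighted by counts, its mean length of 1951 bases still lay above the 1738 to 1780 bases of E, against 2219 and 2200 bases in the other EM3 libraries, and the part that effective length had in any result was not tested apart from the checks below. Ribosomal protein genes took 8.82 to 9.75% of counts in E and 5.08 to 7.06% in EM3. EPCAM, KRT8 and KRT18, markers of epithelial cells, were above 100 TPM in all 6 libraries, and CDH1 was at 14.1 TPM or more. Of 23 markers of blood and endothelial cells, 19 stayed below 1 TPM in all 6 libraries, and their summed level was 136 to 141 TPM in E and 109.9 to 124 TPM in EM3, most of it CD68. Of these markers 10 could be tested, and CDH5, CSF1R, HBA1 and KDR were called lower in EM3 and none higher, with a median of -1.59. Mitochondrially encoded mRNAs took 4.18 to 4.59% of counts in E and 3.39 to 5.35% in EM3, with overlap, and none of 12 tested was called, although their summed TPM was 36538 to 43237 in E and 50962 to 88560 in EM3. Their median log2 fold change was 0.23, and -0.03 in EM3 replicate 3 alone. Among the absent markers, the T cell gene CD3D and the natural killer cell gene NKG7 had no count in any of the 6. Progesterone receptor (PGR) was at or below 0.03 TPM throughout.

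A gene was called when the Benjamini-Hochberg adjusted p of edgeR's quasi-likelihood test was under 0.05. Of 18632 genes tested, 3227 were called (17.3%). EM3 was higher for 1744 of them (9.36% of genes tested) and lower for 1483 (7.96%). Counts of list members below are to be read beside these shares. The change was at least 2-fold for 2369 genes and at least 8-fold for 622. In counts scaled to library size, all EM3 libraries lay above all E libraries for 24.0% of genes tested and below them for 25.4%. A complete separation of the clones, given for single genes below, was therefore common. Leaving out any 1 E library, or EM3 replicate 1 or 2, took the count to between 1950 and 2093, whereas 3310 genes were called without EM3 replicate 3. A test on TPM moved the split between directions: its median over all genes lay at 0.28 on the log2 scale and 80.02% of its calls were higher in EM3, against 54.0% here. The fold changes below are on the log2 scale from counts, with their standard error (SE), and levels are TPM in the order of replicates 1 to 3.

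EM3 carried less keratin messenger RNA than E but kept a large amount of it. Of 5 tested keratins of simple epithelia, 4 fell and none rose. Their median log2 fold change was -1.54, against 0.03 over all genes tested. KRT8 (chr12:52897187-52949954, minus strand, GRCh38), which pairs with KRT18 in the filaments of simple epithelia, was at 4595, 4194 and 4914 TPM in E and at 665, 705 and 2219.8 TPM in EM3. Every EM3 library was below every E library, and EM3 replicate 3 stood between the other EM3 libraries and E. KRT8 fell by 1.86 ± 0.35 (edgeR, adjusted p = 0.00113). In EM3 replicate 3 alone the log2 fold change was -1.47 (adjusted p = 0.123). KRT8 and KRT18 overlap on opposite strands at their ends, and whether the counting used strand is not given in the sources used here.

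KRT18 was at 475, 463 and 463 TPM in E and at 224, 209 and 212 TPM in EM3, a tight drop of 1.54 ± 0.33 (edgeR, adjusted p = 0.00305). KRT19, the smallest keratin, went from 810.5, 907 and 838 TPM to 119, 211 and 195 TPM and fell by 2.77 ± 0.60 (edgeR, adjusted p = 0.00356). KRT7 moved least, from 2935, 2831 and 2941 TPM to 2498, 2063 and 1968 TPM. Its fall of 0.87 ± 0.29 passed narrowly (edgeR, adjusted p = 0.0459). With 1968 TPM or more in each library, KRT7 stayed among the abundant transcripts of EM3. Leaving out any 1 of the 6 libraries ended the call of KRT7 (edgeR, adjusted p up to 0.155), but of none of KRT8, KRT18 and KRT19.

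Of 12 tested keratins of basal and squamous epithelium, 7 fell and none rose, with a median of -2.65. KRT5, the keratin of basal cells, was at 742, 831 and 760.3 TPM in E and at 219.7, 129.6 and 269.9 TPM in EM3, without overlap (fall of 2.28 ± 0.42; edgeR, adjusted p = 0.00109). Its usual partner KRT14 was much scarcer in E, at 21.4, 21.5 and 23.2 TPM, and was at 1.63, 1.19 and 1.89 TPM in EM3. KRT14 fell by 4.21 ± 0.60 (edgeR, adjusted p = 0.000108), and this call was also made in EM3 replicate 3 alone (-3.85, adjusted p = 0.0278). KRT17 fell from 1589, 2157 and 2462 TPM to 68.3, 37.7 and 329.7 TPM. Replicate 3 held the most KRT17 of the EM3 libraries, and the call (-4.20 ± 1.29; edgeR, adjusted p = 0.0307) was not made there (-2.95, adjusted p = 0.486). KRT15, KRT6A, KRT6B and KRT13 were the other members called lower. KRT16, a keratin of stressed epidermis, had 186, 228 and 263 TPM in E and 31.5, 14.2 and 98.2 TPM in EM3 and did not pass (edgeR, adjusted p = 0.0984). The calls of KRT17 and KRT6B were lost when any library but EM3 replicate 3 was left out (adjusted p up to 0.122 and 0.149), and that of KRT6A without E replicate 3 or EM3 replicate 1 or 2 (up to 0.0926).

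Among 12 tested S100 calcium-binding proteins, 5 were lower and none higher. S100A2, an abundant product of basal cells, was at 2828, 3095 and 2969 TPM in E and at 693, 861 and 1098 TPM in EM3. The clones did not overlap, and S100A2 fell by 2.49 ± 0.56 (edgeR, adjusted p = 0.00488). S100A8, a subunit of the neutrophil and squamous cell protein calprotectin, had 124, 148 and 176 counts in E and no count in any EM3 library. Its partner S100A9 was at 10.6, 12.4 and 13.2 TPM in E and at 0.83, 2.08 and 1.65 TPM in EM3. Of 19 tested genes of the cornified envelope and squamous differentiation, 3 fell (TGM1, which cross-links the envelope, the factor ELF3 and SPRR2D). Over all genes tested, 7.96% fell. SPRR2D lost its call without any 1 library and ELF3 without 5 of the 6 (edgeR, adjusted p up to 0.159 and 0.124).

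Tight junctions seal the space between epithelial cells, and 9 of 20 tested genes of tight junctions and apical polarity fell in EM3 while none rose (median -0.96). CLDN4, a claudin of tight epithelia, was at 40.2, 55.4 and 57.1 TPM in E and at 2.36, 7.95 and 8.42 TPM in EM3. All EM3 libraries lay far below E, and CLDN4 fell by 3.44 ± 0.80 (edgeR, adjusted p = 0.00574). CLDN7 fell less, from 347, 381 and 413 TPM to 113, 142 and 154 TPM (-1.80 ± 0.36; edgeR, adjusted p = 0.00205). CLDN1 and CLDN3 also fell, by 3.15 ± 0.92 and 4.69 ± 0.68, although CLDN3 was at 1.46 TPM or below in every library. The call of CLDN1 was lost without any 1 library other than E replicate 1 (edgeR, adjusted p up to 0.102). Occludin (OCLN), a membrane protein of the same junction, was at 23.9, 28.3 and 24.8 TPM in E and at 7.75, 10.1 and 15 TPM in EM3 (-1.44 ± 0.32; edgeR, adjusted p = 0.0044). LLGL2, which sets the basolateral side of the cell, was at 17, 21.4 and 20.3 TPM in E and at 3.41, 3.76 and 5.15 TPM in EM3. It fell by 2.43 ± 0.32 (edgeR, adjusted p = 4.54e-05) and was called in replicate 3 alone as well (-2.19, adjusted p = 0.0154). For the junction adaptor CGN the count test gave -2.09 ± 0.35 (edgeR, adjusted p = 0.000493), but its TPM overlapped between clones, at 3.31, 3.40 and 5.28 in E and 1.82, 3.79 and 1.53 in EM3.

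Adherens junctions were lowered in part. E-cadherin (CDH1, chr16:68737225-68835548, plus strand) was at 87.5, 117 and 118 TPM in E and at 14.1, 42.3 and 48.6 TPM in EM3. The EM3 libraries were all lower but spread widely among themselves. CDH1 fell by 2.09 ± 0.56 (edgeR, adjusted p = 0.0147), with -1.53 in replicate 3 alone (adjusted p = 0.401). Without EM3 replicate 1 or without EM3 replicate 2 it was not called (adjusted p up to 0.0814). Alpha-catenin (CTNNA1), which links cadherins to actin, went from 416, 427 and 399 TPM to 224, 249.6 and 222 TPM. This was a close-set fall of 1.15 ± 0.16 (edgeR, adjusted p = 0.000102) that replicate 3 alone also gave (-1.13, adjusted p = 0.0144). Beta-catenin (CTNNB1) had 127, 129.6 and 124 TPM in E and 123, 110.4 and 157 TPM in EM3, and the clones overlapped.

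Of 15 tested cadherins and adherens junction genes, 4 fell (CDH1, CDH3, CTNNA1 and NECTIN4) and 2 rose. Those that rose were CDH11, a cadherin of mesenchymal cells, and CDH13, an anchored cadherin without a cytoplasmic part. CDH11 was at 3.63, 3.05 and 3.06 TPM in E and at 30.9, 9.24 and 18 TPM in EM3. All EM3 libraries were higher (2.78 ± 0.77; edgeR, adjusted p = 0.0202). The call of CDH11 was lost without any 1 E library or EM3 replicate 1 (adjusted p up to 0.107). CDH13 and CDH3 each lost theirs without 4 of the 6 libraries. N-cadherin (CDH2) was at 9.24, 7.91 and 8.36 TPM in E and at 21.5, 14.4 and 14.9 TPM in EM3 and did not pass on counts (0.75 ± 0.40; edgeR, adjusted p = 0.211). EPCAM was at 169, 171 and 164 TPM in E, at 308 and 304 TPM in EM3 replicates 1 and 2, and at 130.0 TPM in EM3 replicate 3. Its counts gave -0.12 ± 0.33 (edgeR, adjusted p = 0.831), and the higher TPM was seen only in the EM3 libraries of long effective length.

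Desmosomes rivet neighbouring epithelial cells through their keratins, and 5 of 11 tested desmosome genes fell while none rose (median -0.89). The plaque proteins carried these calls. PPL (periplakin) was at 25.6, 29.3 and 28.6 TPM in E and at 5.38, 6.10 and 7.12 TPM in EM3, a clear separation, and fell by 2.62 ± 0.33 (edgeR, adjusted p = 3.08e-05; replicate 3 alone -2.22, adjusted p = 0.0133). The plakophilins PKP1, PKP2 and PKP3 fell by 1.79 ± 0.30, 1.75 ± 0.32 and 0.89 ± 0.20, and EVPL (envoplakin) fell by 1.16 ± 0.23. Desmoplakin (DSP), the main linker to keratin, was at 51.6, 61.6 and 56.9 TPM in E and at 46.3, 48.6 and 58.0 TPM in EM3, with overlap. Among 15 tested genes of hemidesmosomes, laminins and their integrins, ITGB4 and COL17A1 fell and LAMA1 rose. These counts stand beside 7.96% lower and 9.36% higher of all genes tested and describe single members. ITGB4, the integrin chain that anchors basal cells to the basement membrane, was at 24.6, 36.6 and 35.5 TPM in E and at 5.99, 8.43 and 5.15 TPM in EM3 (-2.09 ± 0.56; edgeR, adjusted p = 0.0139). Without EM3 replicate 2 its adjusted p was 0.0503.

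Vimentin (VIM, chr10:17228259-17237593, plus strand) was at 12.4, 15.5 and 13.4 TPM in E and at 1490.0, 1229 and 1047 TPM in EM3. No library came near those of the other clone. VIM rose by 6.08 ± 0.36 (edgeR, adjusted p = 7.47e-09), and replicate 3 alone gave 6.04 (adjusted p = 8.03e-08). The mean of EM3, 1255 ± 223 TPM (SD, n = 3), can be set beside 127 TPM in Parental, 706 in EM1, 963 in EM2, 2664 in M1 and 2102 in M2. VIM was the only called riser among 17 tested genes of mesenchymal filaments and the contractile cytoskeleton. The smooth muscle actin ACTA2 fell, from 2.39, 3.61 and 3.57 TPM to 0.43, 0.86 and 1.88 TPM (edgeR, adjusted p = 0.0487), a call lost without any library but EM3 replicate 3 (up to 0.187). The median of this list was -0.24, and it took the other sign in replicate 3 alone (0.06) and in a fit with a term for the library set (0.10).

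Transcription factors of the mesenchymal programme moved both ways: of 15 tested, 4 rose and 3 fell. ZEB1 (chr10:31318495-31529814, plus strand), a repressor of E-cadherin and of epithelial splicing, was at 0.08, 0.35 and 0.09 TPM in E and at 3.98, 2.53 and 3.64 TPM in EM3. It rose by 4.48 ± 0.47 (edgeR, adjusted p = 5.09e-06; replicate 3 alone 4.43, adjusted p = 0.00013). Means of 33.3 TPM in M1 and 26.7 TPM in M2 were well above the 3.38 ± 0.758 TPM (SD, n = 3) of EM3, while EM1 had 0.613 and EM2 1.33 TPM.

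SNAI2 (Slug), which also binds the E-boxes of epithelial promoters, was at 13, 13 and 14.1 TPM in E and at 52.4, 47.9 and 93.5 TPM in EM3 (1.95 ± 0.56; edgeR, adjusted p = 0.0213). Replicate 3 alone was called for SNAI2 too (2.48, adjusted p = 0.0482). Leaving out EM3 replicate 3 or any E library ended the call of SNAI2 (adjusted p up to 0.0734). PRRX1 rose by 4.31 ± 0.64 from levels of 0.35 TPM or less, and TCF4, a partner of TWIST proteins, rose by 1.63 ± 0.46 with a call that needed each library but EM3 replicate 3. Those that fell were TWIST2, PRRX2 and FOXC2. TWIST2 went from 7.72, 8.70 and 8.12 TPM to 3.41, 3.54 and 2.85 TPM, a change of -1.74 ± 0.18 with little spread (edgeR, adjusted p = 5.09e-06). TWIST1 was at 8.20, 7.44 and 7.22 TPM in E and at 21.4, 28.2 and 19.4 TPM in EM3 and missed the threshold on counts (edgeR, adjusted p = 0.0895). SNAI1 was at 3.75, 8.60 and 24.9 TPM in EM3 against 6.09 to 7.64 TPM in E, so its libraries overlapped.

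Regulators of the epithelial state were not uniformly lower. Of 18 tested, GRHL1, GRHL3 and ELF3 fell, GRHL2 and GATA3 rose, and the median was -0.63. The 2 higher of 18 stand beside 9.36% of all genes tested. In the fit with a term for the library set, no gene of this list was called higher and 2 were called lower, so neither rise was called there. ELF3 lost its call without any library but EM3 replicate 2 (edgeR, adjusted p up to 0.124), and GATA3 without E replicate 2 or 3 or EM3 replicate 1 or 2 (up to 0.106), whereas GRHL1 and GRHL3 kept theirs whichever library was left out. GRHL1, a grainyhead factor that activates junction genes, was at 3.63, 4.27 and 5.19 TPM in E and at 0.31, 0.44 and 0.47 TPM in EM3 (-3.50 ± 0.53; edgeR, adjusted p = 0.000179; replicate 3 alone -3.17, adjusted p = 0.037). Its relative GRHL2 was at 51.5, 23.3 and 32.6 TPM in E and at 112, 112 and 52.9 TPM in EM3. The call for GRHL2 (0.87 ± 0.29; edgeR, adjusted p = 0.0448) came from EM3 replicates 1 and 2, since replicate 3 alone gave 0.13 (adjusted p = 0.935), and it was lost without any other library (up to 0.22). The epithelial splicing regulators remained expressed. ESRP1 was at 36.0, 36.1 and 37.8 TPM in E and at 46.5, 80.5 and 40.4 TPM in EM3, and ESRP2 at 22.9 to 23.1 TPM and 19.4 to 27.3 TPM (edgeR, adjusted p = 0.652 and 0.605). OVOL1, a repressor of ZEB1, was at 12.2, 12.5 and 10.3 TPM in E and at 1.38, 1.97 and 6.21 TPM in EM3 and narrowly missed the threshold (edgeR, adjusted p = 0.0636).

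**Figure D1:**
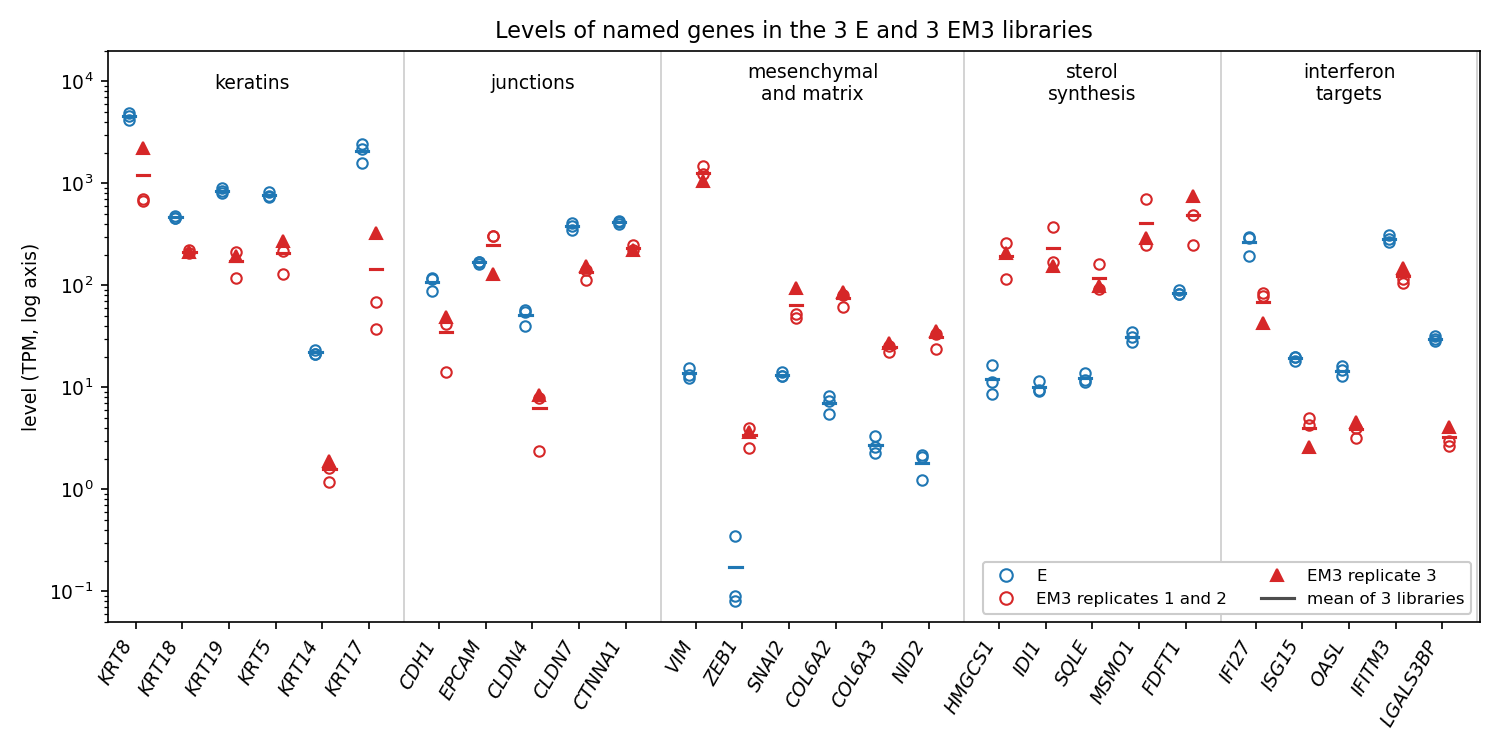
Levels in TPM on a log axis of named genes in the 3 E libraries (blue circles), EM3 replicates 1 and 2 (red circles) and EM3 replicate 3 (red triangles), with dashes at the mean of 3 libraries. Apart from EPCAM, the EM3 and E libraries of each gene do not overlap; KRT8 and KRT17 show EM3 replicate 3 above the other EM3 libraries.

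Matrix genes changed member by member. Of 24 tested collagen genes, 4 rose, 3 fell, and the median was -0.02 (0.04 on the TPM scale). Over all genes tested, 9.36% rose and 7.96% fell. All 3 chains of collagen VI, a beaded filament of the pericellular matrix, rose. COL6A1 was at 9.47, 11.6 and 11 TPM in E and at 50.6, 28.5 and 47.0 TPM in EM3 (1.68 ± 0.35; edgeR, adjusted p = 0.00263). COL6A2 was at 5.48, 8.21 and 7.43 TPM and at 80.8, 61.2 and 86.1 TPM (3.28 ± 0.44; edgeR, adjusted p = 5.36e-05). COL6A3 was at 2.60, 2.29 and 3.34 TPM and at 25.4, 22.5 and 27.3 TPM (3.01 ± 0.39; edgeR, adjusted p = 3.64e-05). Each of the 3 chains separated the clones completely and was called in EM3 replicate 3 alone, with adjusted p of 0.0166, 0.000585 and 0.000332.

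COL9A3, a chain of the cartilage collagen IX, showed the reverse, with 51.0, 59.0 and 54.1 TPM in E and 0.49, 0.81 and 0.81 TPM in EM3 (-6.77 ± 0.59; edgeR, adjusted p = 6.04e-07). Among 32 matrix glycoproteins, proteoglycans and cross-linking enzymes, 6 rose (NID1, NID2, FBN1, DCN, CTHRC1 and FAP) and 3 fell (TNC, FBLN5 and P4HA2). Single libraries decided the calls of DCN and NID1 (lost without any but EM3 replicate 2, adjusted p up to 0.106 and 0.165) and of TNC (lost without any of the 6, up to 0.12). NID2, a basement membrane linker, was at 2.19, 2.08 and 1.23 TPM in E and at 33.6, 24.0 and 35.4 TPM in EM3. It rose by 3.75 ± 0.38 (edgeR, adjusted p = 2.8e-06; replicate 3 alone 4.19, adjusted p = 1.41e-05). Fibronectin (FN1) was abundant in both clones, at 446, 478 and 437 TPM in E and 538, 599.7 and 653 TPM in EM3, and was not called (0.18 ± 0.28; edgeR, adjusted p = 0.693).

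Of 23 tested matrix proteases and their inhibitors, MMP2 and TIMP2 rose and MMP7, MMP9, MMP24 and TIMP3 fell. The shares over all genes tested were 9.36% higher and 7.96% lower. MMP9 lost its call without any 1 library and TIMP2 without E replicate 1 or EM3 replicate 3 (edgeR, adjusted p up to 0.146 and 0.052). The gelatinase MMP2 was at 5.31, 6.08 and 5.55 TPM in E and at 14.5, 17.2 and 13.7 TPM in EM3 (1.08 ± 0.24; edgeR, adjusted p = 0.00506). TIMP3, an inhibitor bound to matrix, was at 2.81, 3.10 and 3.49 TPM in E, and the 3 EM3 libraries held 1 count of it in all. Parental, EM1 and EM2 had at most 0.01 TPM of TIMP3 on average, whereas M1 had 7.78 and M2 3.78 TPM. Markers of fibroblasts were read beside these genes. Of 11 tested, DCN and FAP rose and ACTA2 fell. The summed level of the 12 markers listed was 65.4 to 77.4 TPM in E and 149.6 to 200.3 TPM in EM3. Only 5 of the 12 stayed below 1 TPM in all 6 libraries. Among those 5 was COL1A2, a defining collagen of fibroblasts, at 0.25 TPM or below.

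The enzymes of cholesterol synthesis rose together in EM3. They turn acetyl-CoA into mevalonate, squalene and sterols, and their genes are turned on by the SREBP2 protein when membranes run short of sterol. Of 26 tested genes of cholesterol synthesis, uptake and control, 15 rose, none fell, and the median was 1.58 (1.73 in replicate 3 alone, where 11 were called, against 2.83% of all genes called higher there). The promoters of HMGCS1 and MSMO1, which are named among the strongest responders below, are shown as the 250 bases before the RefSeq start site (GRCh38.p14, 5′ to 3′ on the gene's strand). Capitals mark CCAAT on either strand, the letters bound by NF-Y, a partner of SREBP2. HMGCS1 lies at chr5:43313413-43313662 on the minus strand and MSMO1 at chr4:165327419-165327668 on the plus strand.
HMGCS1: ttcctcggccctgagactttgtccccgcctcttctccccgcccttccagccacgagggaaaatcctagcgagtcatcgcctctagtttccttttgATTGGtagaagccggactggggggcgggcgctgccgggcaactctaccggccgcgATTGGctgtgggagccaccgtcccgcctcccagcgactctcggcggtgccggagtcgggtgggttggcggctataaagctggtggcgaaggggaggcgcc
MSMO1: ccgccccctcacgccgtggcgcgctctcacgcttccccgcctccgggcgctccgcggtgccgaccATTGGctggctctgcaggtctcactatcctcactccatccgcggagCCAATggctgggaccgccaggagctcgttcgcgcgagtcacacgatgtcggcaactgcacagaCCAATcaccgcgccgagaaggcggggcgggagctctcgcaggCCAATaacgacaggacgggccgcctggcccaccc
CCAAT was found in 15 of the 19 promoters of this list that matched RefSeq (78.9%) and in 33.0% of 27305 promoters of the same length. HMGCS1 held 2 matches and MSMO1 held 4. A form of the sterol regulatory element, the letters ATCAC and CCAC with any 1 base between them, was found on either strand in 1 of the 19, that of SREBF2, and in 0.125% of all promoters. A match describes these letters in this window and nothing more.

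HMGCS1, which makes the precursor of mevalonate, was at 16.5, 11.2 and 8.65 TPM in E and at 115, 262 and 206 TPM in EM3. All EM3 libraries were well above E, and the change was 3.87 ± 0.55 (edgeR, adjusted p = 0.000101; replicate 3 alone 3.93, adjusted p = 0.00135). Further along the pathway, MVK and MVD rose by 2.05 ± 0.43 and 2.25 ± 0.48. IDI1, which isomerises the isoprene unit, was at 11.5, 9.45 and 9.27 TPM in E and at 168, 377 and 155 TPM in EM3 (4.02 ± 0.50; edgeR, adjusted p = 2.87e-05). IDI1 lies in the stretch of chromosome 10 described below.

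FDFT1, which joins 2 farnesyl units into squalene, was at 89.2, 81.9 and 83.2 TPM in E and at 249, 488 and 745 TPM in EM3 (2.23 ± 0.53; edgeR, adjusted p = 0.00695). SQLE, the second controlled step, was at 13.8, 11.7 and 11.4 TPM and at 92.2, 162 and 98.2 TPM (2.72 ± 0.29; edgeR, adjusted p = 5.09e-06). MSMO1, which removes methyl groups from the sterol ring, went from 35.3, 30.9 and 27.9 TPM to 251, 699 and 292 TPM (3.29 ± 0.58; edgeR, adjusted p = 0.00076). For each of these enzymes the lowest EM3 library was above the highest E library, as held on scaled counts for 24.0% of all genes tested. LSS, CYP51A1, HSD17B7, SC5D and ACAT2 rose as well, and so did INSIG1, which holds SREBP in the endoplasmic reticulum, and the sterol carrier STARD4. Of these 15, STARD4 lost its call without any 1 library (edgeR, adjusted p up to 0.119), LSS without E replicate 1 or 3 or EM3 replicate 3 (up to 0.0748) and HSD17B7 without E replicate 3 or EM3 replicate 2 (up to 0.0659).

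Not every member of the list passed on counts. SREBF2, which encodes SREBP2, was at 36.0, 42.0 and 38.6 TPM in E and at 66.2, 84.4 and 102 TPM in EM3, yet on counts gave 0.61 ± 0.38 (edgeR, adjusted p = 0.288). In a fit with a term for the library set, which called 10.9% of all genes higher and 9.37% lower, 22 of the 26 were higher, SREBF2 included (edgeR, adjusted p = 0.00087). Among the other lines, EM1 had the mean levels nearest to EM3. HMGCS1 averaged 194 ± 74.0 TPM (SD, n = 3) in EM3, 240.0 in EM1, 15.1 in EM2, 23.0 in Parental, 16.4 in M1 and 16.3 in M2, and IDI1 233 ± 125 TPM (SD, n = 3) in EM3, 266 in EM1 and 45.9 in EM2.

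Of 31 tested genes of fatty acid synthesis and lipid storage, 7 rose and 5 fell. Those that rose build and desaturate fatty acids (ACLY, ACACA, ME1, SCD, ELOVL5, ELOVL6 and FADS2). ELOVL5, an elongase, was at 31.0, 30 and 29.1 TPM in E and at 103, 114 and 111 TPM in EM3, with almost no spread (1.53 ± 0.19; edgeR, adjusted p = 2.46e-05). FADS2, a desaturase, went from 38.5, 37.5 and 32.7 TPM to 133, 187 and 255 TPM (2.05 ± 0.54; edgeR, adjusted p = 0.0129). Fatty acid synthase (FASN) was at 140.2, 128 and 109 TPM in E and at 282, 428 and 709 TPM in EM3 and did not pass (1.44 ± 0.56; edgeR, adjusted p = 0.0834). Among those that fell was G0S2, an inhibitor of the lipase that empties fat droplets, with 42.6, 57.7 and 72.0 TPM in E and 0, 0 and 0.10 TPM in EM3. ACSL5, DGAT1, FABP4 and HILPDA were the other members that fell. Of the 12, ELOVL5, ELOVL6, G0S2 and ACSL5 kept their call whichever library was left out, and FADS2 lost it without E replicate 1 or 3 or EM3 replicate 3 (edgeR, adjusted p up to 0.0566).

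Interferon-stimulated genes were lower in EM3. Interferons act through the factor complex ISGF3, which binds the interferon-stimulated response element, and many cells keep a low activity of these genes without infection. Of 40 tested, 20 fell and 1 rose (CMPK2), and the median was -1.38 (-1.36 in replicate 3 alone, where 7 fell, against 1.5% of all genes called lower there). The promoters of ISG15, IFI27 and IFI6 were searched for letters of this element. Capitals mark TTTC, any 2 bases and TTTC on either strand, with 2 overlapping matches in ISG15, 2 in IFI27 and 3 in IFI6. As above, a match describes letters in this window and nothing more. ISG15 lies at chr1:1013247-1013496 (plus strand), IFI27 at chr14:94110486-94110735 (plus strand) and IFI6 at chr1:27672193-27672442 (minus strand), again as the 250 bases before the RefSeq start in GRCh38.p14.
ISG15: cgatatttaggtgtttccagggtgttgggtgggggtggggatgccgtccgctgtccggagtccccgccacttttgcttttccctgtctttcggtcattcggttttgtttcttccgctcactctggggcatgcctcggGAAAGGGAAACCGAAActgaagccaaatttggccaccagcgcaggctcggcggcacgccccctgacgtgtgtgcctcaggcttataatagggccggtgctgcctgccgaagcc
IFI27: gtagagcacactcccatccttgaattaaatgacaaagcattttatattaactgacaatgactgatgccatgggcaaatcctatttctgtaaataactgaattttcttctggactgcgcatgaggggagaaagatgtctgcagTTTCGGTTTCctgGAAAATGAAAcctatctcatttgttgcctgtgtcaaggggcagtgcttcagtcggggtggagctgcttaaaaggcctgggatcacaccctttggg
IFI6: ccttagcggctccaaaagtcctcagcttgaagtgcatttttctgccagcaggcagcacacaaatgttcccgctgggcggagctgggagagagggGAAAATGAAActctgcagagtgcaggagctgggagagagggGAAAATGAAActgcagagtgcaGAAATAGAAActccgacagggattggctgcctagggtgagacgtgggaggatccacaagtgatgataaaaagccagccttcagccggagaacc
These letters were found in 18 of 32 matched promoters of the list (56.2%) and in 3.07% of all 27305 promoters. Of the 15 called members with a matched promoter, 11 held them. CAGGTG, an E-box of ZEB and SNAI factors, was searched in the same way. It was found in 0 of 2 matched promoters of simple keratins, 4 of 14 of tight junction genes and 3 of 12 of epithelial factors. Of all promoters, 17.5% held it.

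ISG15, a ubiquitin-like protein, was at 19.8, 18.2 and 19.9 TPM in E and at 5.01, 4.29 and 2.59 TPM in EM3. The clones were well apart, and ISG15 fell by 2.73 ± 0.34 (edgeR, adjusted p = 2.66e-05; replicate 3 alone -3.09, adjusted p = 0.00268). IFI27 was at 197, 294 and 302 TPM in E and at 84.7, 79.1 and 43.0 TPM in EM3 (-2.27 ± 0.27; edgeR, adjusted p = 1.5e-05; replicate 3 alone -2.08, adjusted p = 0.00679). IFI6, a small membrane protein, was at 14.5, 16.9 and 16.5 TPM and at 5.23, 3.35 and 5.41 TPM (-2.17 ± 0.37; edgeR, adjusted p = 0.000537). In all 3 genes the highest EM3 library stood below the lowest E library, as held on scaled counts for 25.4% of all genes tested.

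OAS1, which senses double-stranded RNA, was at 1.70, 2.08 and 2.41 TPM in E and at 0.04, 0.11 and 0.06 TPM in EM3 (-5.64 ± 0.54; edgeR, adjusted p = 1.83e-06). Its relatives OAS2 and OASL fell by 6.36 ± 0.86 and 2.32 ± 0.58. IFITM3, a membrane protein that blocks virus entry, was the most abundant of the called members, at 268, 311 and 283 TPM in E and 117, 105 and 148 TPM in EM3 (-1.62 ± 0.34; edgeR, adjusted p = 0.00276). The remaining members that fell were IFITM2, IFIT1, IFIT2, IFI44L, IRF7, USP18, XAF1, SAMD9, SAMD9L, EPSTI1, GBP1, ISG20 and LGALS3BP. Leaving out single libraries ended 9 of the 20 falls, among them OASL without EM3 replicate 2 (edgeR, adjusted p = 0.0535), and none of those of ISG15, IFI27, IFI6, OAS1 and IFITM3. EM3 was not alone at this level, since ISG15 averaged 3.72 TPM in EM1, 4.57 in EM2, 5.92 in Parental, 14 in M1 and 5.99 in M2, against 19.3 ± 0.941 TPM (SD, n = 3) in E.

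Of 17 tested genes of MHC class I presentation, 3 fell (HLA-E and the immunoproteasome subunits PSMB8 and PSMB9) and none rose. Over all genes tested, 7.96% fell and 9.36% rose. HLA-E was at 57.1, 62.5 and 63.8 TPM in E and at 32.2, 35.0 and 43.7 TPM in EM3 (-0.98 ± 0.26; edgeR, adjusted p = 0.0144). All 3 were lost without EM3 replicate 2, with adjusted p up to 0.106.

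**Figure D2:**
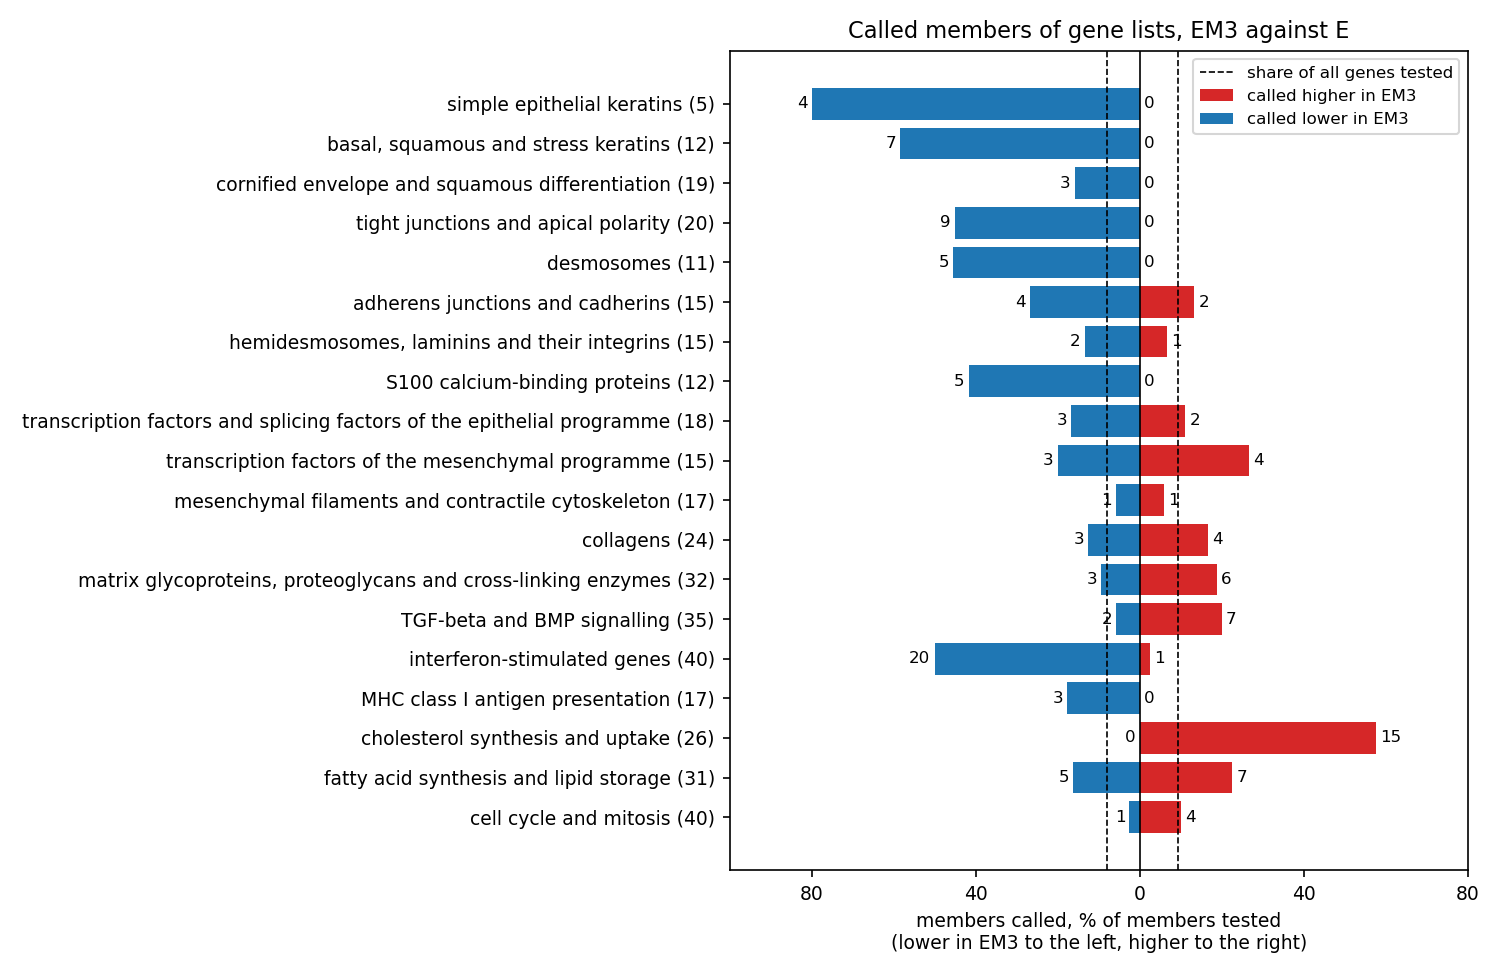
Share of the tested members of 19 gene lists called lower (blue, left) and higher (red, right) in EM3 against E by edgeR, in percent, with the number called at each bar and the number tested in parentheses. Dashed lines mark the share of all 18632 genes, 7.96% lower and 9.36% higher; cholesterol synthesis reached 15 higher of 26 and interferon-stimulated genes 20 lower of 40.

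Signalling genes were next. TGF-beta is the ligand most used to induce an epithelial-mesenchymal transition, and it signals through type I receptors, SMAD2 and SMAD4. Of 35 tested genes of TGF-beta and BMP signalling, 7 rose and 2 fell, against 9.36% and 7.96% of all genes tested. The ligand TGFB2 was at 29.9, 23.4 and 21.1 TPM in E and at 103, 58.0 and 118 TPM in EM3 (1.51 ± 0.41; edgeR, adjusted p = 0.0148). Its receptor TGFBR1 was at 14.3, 12 and 12 TPM and at 41.3, 36.8 and 41.6 TPM (1.53 ± 0.29; edgeR, adjusted p = 0.00117). Both separated the clones and were called in replicate 3 alone, with adjusted p of 0.0178 and 0.0491. TGFB2 lost its call without E replicate 2 or 3 or EM3 replicate 3 (edgeR, adjusted p up to 0.0737).

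SMAD2 was at 60.2, 64.4 and 56.0 TPM in E and at 101, 113 and 128 TPM in EM3 (0.82 ± 0.16; edgeR, adjusted p = 0.00201). SMAD4 was at 40.3, 40.9 and 31.1 TPM and at 107, 114 and 72.4 TPM (1.16 ± 0.30; edgeR, adjusted p = 0.012). Both lie in the stretch of chromosome 18 described below, in which 75 of 159 genes were called higher. GREM1, a secreted BMP antagonist, was at 53.8, 50.4 and 52.9 TPM in E and at 515, 94.0 and 512 TPM in EM3, so that EM3 replicate 2 held a fraction of the level of the other EM3 libraries (2.58 ± 0.85; edgeR, adjusted p = 0.0439). The calls of GREM1 and SMAD4 were lost without 5 and 2 of the 6 libraries (adjusted p up to 0.129 and 0.0583). LTBP1 and FSTL1 also rose, and the ligands BMP6 and INHBB fell by 5.14 ± 1.32 and 5.85 ± 1.08. LTBP1, FSTL1 and BMP6 lost their calls without 5, 4 and 2 of the 6 libraries (edgeR, adjusted p up to 0.134, 0.112 and 0.0596).

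Of 35 tested genes of WNT signalling, the receptors FZD2, FZD3 and FZD4 and the receptor-clearing ligase RNF43 rose, and the ligand WNT7B and the factor TCF7 fell. These 4 rises and 2 falls stand beside 9.36% higher and 7.96% lower of all genes tested and describe single members. The calls of FZD2 and FZD3 were lost without 5 and 4 of the 6 libraries (edgeR, adjusted p up to 0.174 and 0.106). TCF7 was at 5.70, 7.58 and 6.90 TPM in E and at 0.32, 0.69 and 1.78 TPM in EM3 (-3.56 ± 0.63; edgeR, adjusted p = 0.000741). Of 20 tested NOTCH pathway genes, NOTCH2 and the target HEY1 rose and none fell, so that 2 of 20 were higher beside 9.36% of all genes. NOTCH2 was at 13.2, 12.6 and 11.8 TPM and at 29.9, 26.1 and 30.7 TPM (0.83 ± 0.15; edgeR, adjusted p = 0.000825; replicate 3 alone 1.00, adjusted p = 0.00581).

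Of 40 tested cell cycle genes, BUB1B, CCNA2, CDKN2C and FOXM1 rose and the inhibitor CDKN1C fell, so that 4 of 40 were higher beside 9.36% of all genes. None of the 40 was called in EM3 replicate 3 alone, where 2.83% of all genes were higher and 1.5% lower. CCNA2 (cyclin A2) was at 16.1, 11.9 and 10.7 TPM in E, at 99.2 and 116 TPM in EM3 replicates 1 and 2 and at 36.4 TPM in EM3 replicate 3. The log2 fold change was 2.22 ± 0.52 over 3 libraries (edgeR, adjusted p = 0.00651) and 1.25 in replicate 3 alone (adjusted p = 0.355). The proliferation marker MKI67 was at 38.0, 32.1 and 24.9 TPM in E and at 57.8, 73.0 and 34.2 TPM in EM3, with overlap. The list median was 0.52, and 0.04 in replicate 3 alone. The calls of BUB1B and FOXM1 were lost without EM3 replicate 1 or 2 or E replicate 2 or 3, and that of BUB1B also without E replicate 1 (adjusted p up to 0.169 and 0.121).

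Among 17 tested genes of luminal breast identity and hormone response, 4 rose and 3 fell, against 9.36% and 7.96% of all genes tested. Estrogen receptor (ESR1) was at 0.13, 0.11 and 0.10 TPM in E and at 0.77, 2.10 and 2.26 TPM in EM3. It rose by 2.29 ± 0.40 (edgeR, adjusted p = 0.000627; replicate 3 alone 2.29, adjusted p = 0.0132), at levels that stayed low in a line labelled as lacking the receptor. AGR2, a disulfide isomerase and a target of estrogen receptor in luminal cells, was at 18.5, 19.2 and 19.0 TPM in E and at 0.34, 0.43 and 0.38 TPM in EM3 (-6.20 ± 0.71; edgeR, adjusted p = 1.13e-05). CD44, the hyaluronan receptor used as a marker of stem-like breast cancer cells, was at 442, 525 and 505 TPM in E and at 1739.6, 1360.1 and 1385 TPM in EM3 (1.18 ± 0.31; edgeR, adjusted p = 0.0123). Without E replicate 1 or EM3 replicate 1 it was not called (up to 0.0535). CD44 lies in a stretch of chromosome 11 (30 to 40 Mb) with 20 of 39 tested genes called higher. The median log2 fold change of that stretch was 0.87, and that of CD44 differed from it by 0.32.

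Outside the lists, the largest changes included genes with no count in one of the clones. TRMT10B (chr9:37753803-37778972, plus strand), a tRNA methyltransferase, had no count in any E library and 112, 84 and 119 counts in the EM3 libraries, and Parental, EM1, EM2, M1 and M2 averaged 1.39, 2.04, 1.41, 2.49 and 6.35 TPM. Of the 7 lines, E was the one without it. Its neighbours EXOSC3, which overlaps it on the other strand, and DCAF10 were expressed in E and rose in EM3 by 0.84 ± 0.26 and 1.25 ± 0.27. Protein-coding genes at 0 counts in all EM3 libraries and at a mean of 1 TPM or more in E were S100A8, CD27, HSPB8, APOBEC3A, EPHX2 and the unnamed ENSG00000284934. EPHX2, a soluble epoxide hydrolase, was at 2.22, 3.52 and 4.24 TPM in E, and the genes beside it on chromosome 8, PTK2B, CLU and SCARA3, fell by 1.87 ± 0.45, 1.78 ± 0.59 and 3.07 ± 0.62. CES1, a carboxylesterase, went from 24.0, 30.3 and 31.0 TPM to 0, 0.01 and 0 TPM, and it was at 43.4 TPM on average in M2.

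Several zinc finger and armadillo repeat genes were close to silent in E and expressed in EM3. ZNF43 was at 0.01 TPM in each E library and at 3.19, 3.03 and 1.47 TPM in EM3 (7.95 ± 1.00; edgeR, adjusted p = 3.15e-05). ZNF486, on the same chromosome 19, was at 0 to 0.02 TPM and at 3.38, 4.71 and 1.42 TPM. ARMCX3 and its X-chromosome neighbour ARMCX6 rose by 5.91 ± 0.34 and 7.94 ± 0.58, and both were at or near 0 in EM2 (0.00333 and 0 TPM on average). Of abundant genes, TMSB4X (thymosin beta 4, which binds free actin) was at 243, 233 and 229.9 TPM in E and at 703, 912 and 623 TPM in EM3 (1.18 ± 0.25; edgeR, adjusted p = 0.00303). Ribosomal protein genes such as RPL26 and RPS2 led the abundant falls. Their reads can be shared with processed pseudogenes, which makes their size uncertain.

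Because EM3 replicate 3 shares short effective lengths with E, each change was also read in that library alone. Replicate 3 is 1 of the 3 EM3 libraries that made the calls, so the counts of kept changes are partly fixed by the choice of genes. They describe the called genes and are no separate test of effective length. Of the 3227 called genes, 3225 had the same sign there, 3102 (96.1%) kept at least 50% of the log2 change, and for 3219 replicate 3 lay beyond all 3 E libraries. A test of this 1 library against 3, in which the lone library is assumed to vary like the other groups, called 808 genes (4.34%), 788 of them among the 3227. A test of EM3 replicate 3 against EM3 replicates 1 and 2 sets 1 library against 2 and could not show that they are alike. Chi-square per gene, a measure of count differences against sampling noise, was 256 and 280 between replicate 3 and replicates 1 and 2. Between replicates 1 and 2 it was 92.5. In the fit with a term for the library set, 3740 genes were called (20.2%) and 2679 of the 3227 were called again. Of the 209 called genes that belong to a list, 209 kept their sign in replicate 3, 204 kept at least 50% of the change, and 81 were called there.

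**Figure D3:**
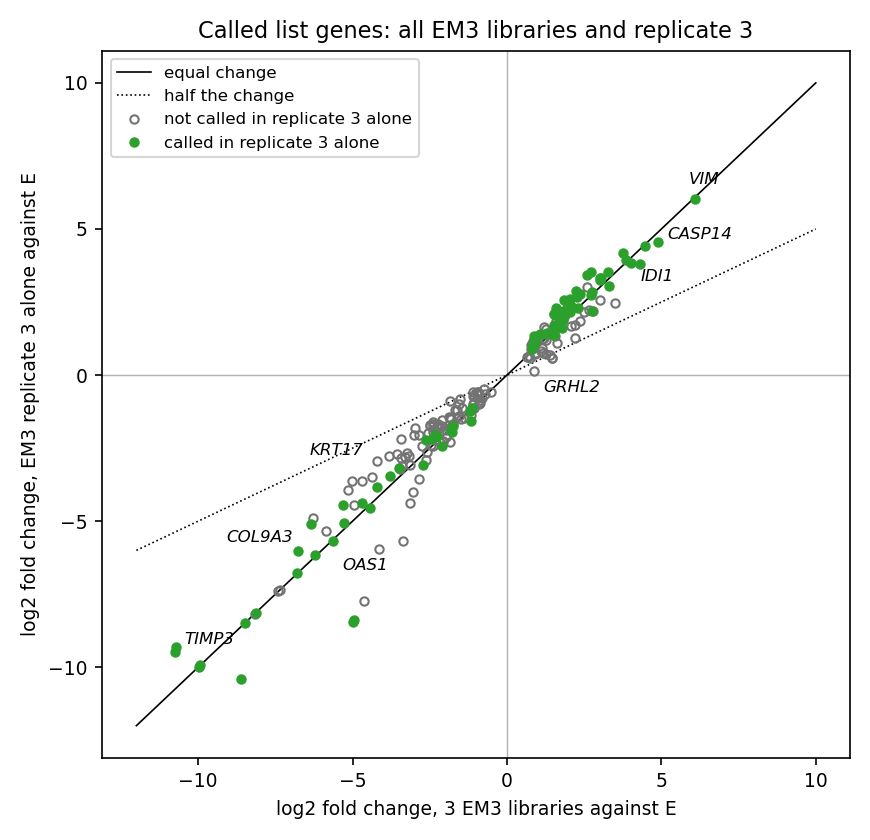
Log2 fold change of the 209 called list genes in all 3 EM3 libraries against E (x axis) and in EM3 replicate 3 alone against E (y axis), with the 81 called in replicate 3 alone filled. The solid line marks equal change and the dotted line 50% of it; VIM and IDI1 lie near the solid line and GRHL2 near 0 on the y axis.

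The changes were also laid out along the chromosomes, because junction, interferon and sterol genes that moved sometimes lay among neighbours that moved alike. Among 292 windows of 10 Mb with at least 10 tested protein-coding genes, 33 had at least 30% of genes called higher and 6 had at least 30% called lower, against 10.6% and 9.34% of the 14315 protein-coding genes tested. Windows were chosen on these values, and the following numbers describe them without a test. The first 40 Mb of chromosome 10 held 126 genes, of which 85 were called higher and 5 lower, with a median of 1.35 (1.24 in replicate 3 alone). VIM, ZEB1, GATA3, KLF6, PFKP, PFKFB3 and IDI1 lie there, and their log2 fold changes differed from the median of the stretch by 4.73 for VIM, 3.13 for ZEB1, 2.67 for IDI1, 0.48 for PFKFB3, 0.46 for KLF6, 0.09 for PFKP and -0.23 for GATA3.

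On a log2 scale of CPM + 0.5 (CPM, counts scaled to the size of the library), the median gene of this stretch lay 1.28, 1.21 and 1.10 above the mean of E in the EM3 libraries. The same measure was 1.19 in EM1, 1.08 in EM2, 1.31 in M1, 1.06 in M2 and 0.98 in Parental, so that here E stood apart from every other line. Stretches of chromosome 4 (70 to 160 Mb, 123 of 269 higher, median 0.93), chromosome 9 (60 to 90 Mb, 43 of 65 higher, median 1.19) and chromosome 18 (0 to 60 Mb, 75 of 159 higher, median 0.74) also held many higher genes. In replicate 3 alone their medians were smaller, at 0.70, 0.98 and 0.56. With a term for the library set they were 0.62, 0.97 and 0.56. CCNA2, ELOVL6 and CXCL5 lie in the stretch of chromosome 4, and SMAD2, SMAD4, TCF4 and LAMA1 in that of chromosome 18. By the same measure the stretch of chromosome 4 lay at 0.77 in EM3, EM1 and M1, 0.66 in EM2, 0.98 in M2 and 0.65 in Parental. That of chromosome 9 lay at 1.05 in EM3, 1.16 in EM1, 0.50 in EM2, 0.75 in M1, 0.36 in M2 and 0.86 in Parental. In both, E again lay below every other line. At the start of chromosome 17 (0 to 10 Mb, 174 genes), 66 were lower, CLDN7, CXCL16 and XAF1 among them.

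A stretch near the end of chromosome 17 was lower in EM3 than in any other line. Its ends were set where the running median of 25 genes of this same EM3 against E change stayed below -0.8, so the following counts describe the choice and are no test of it. From SLC39A11 to EVPL (chr17:72645949-76027452, GRCh38), 52 protein-coding genes were tested, of which 44 fell and none rose, and 51 of the 52 had a negative log2 fold change. Their median was -1.27 with quartiles of -1.54 and -1.03, and replicate 3 alone gave -1.12. LLGL2, ITGB4 and EVPL, described above as polarity and adhesion genes, lie inside it. The fall of LLGL2 was larger than the median of the stretch and that of EVPL was within its quartiles.

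Library by library, the median gene of this stretch lay -1.23, -1.24 and -1.05 from the mean of E in EM3. It lay at -0.46, -0.36 and -0.10 in EM1, at -0.07, -0.27 and -0.01 in EM2 and at -0.10, -0.25 and -0.21 in Parental. In M1 it lay at -0.60, -0.56 and -0.23 and in M2 at -0.27, -0.50 and 0.22, so every EM3 library was below every other library of the study. Tested against EM1, EM2, Parental, M1 and M2 in turn, which share the EM3 libraries that chose the stretch, 10, 33, 32, 26 and 37 of the 52 genes were called lower in EM3. The share of all genes called lower in those comparisons was 0.199%, 2.81%, 1.88%, 10.2% and 20.3%. Whether the number of gene copies differs between the clones in these stretches was not tested.

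**Figure D4:**
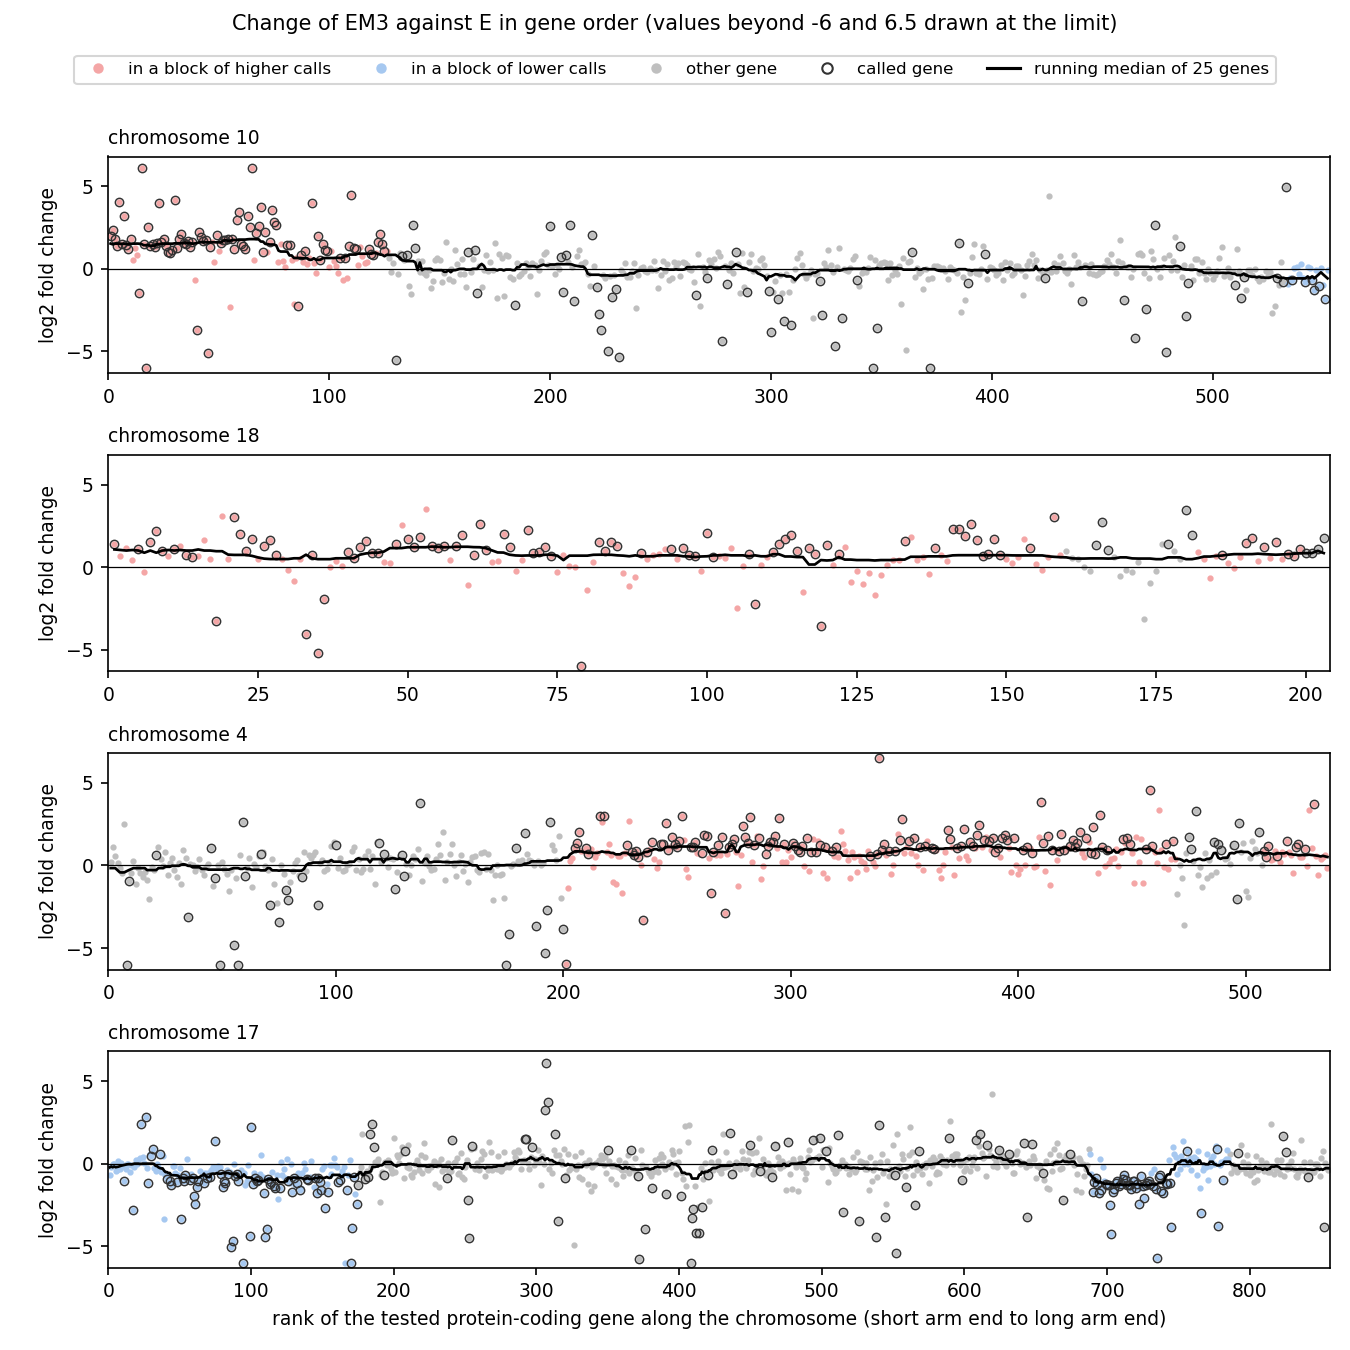
Log2 fold change of EM3 against E for tested protein-coding genes in their order along chromosomes 10, 18, 4 and 17, with called genes ringed, genes of the described stretches coloured and a running median of 25 genes as a line. The line lies above 0 at the start of chromosome 10 and below 0 near the end of chromosome 17.

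**Figure D5:**
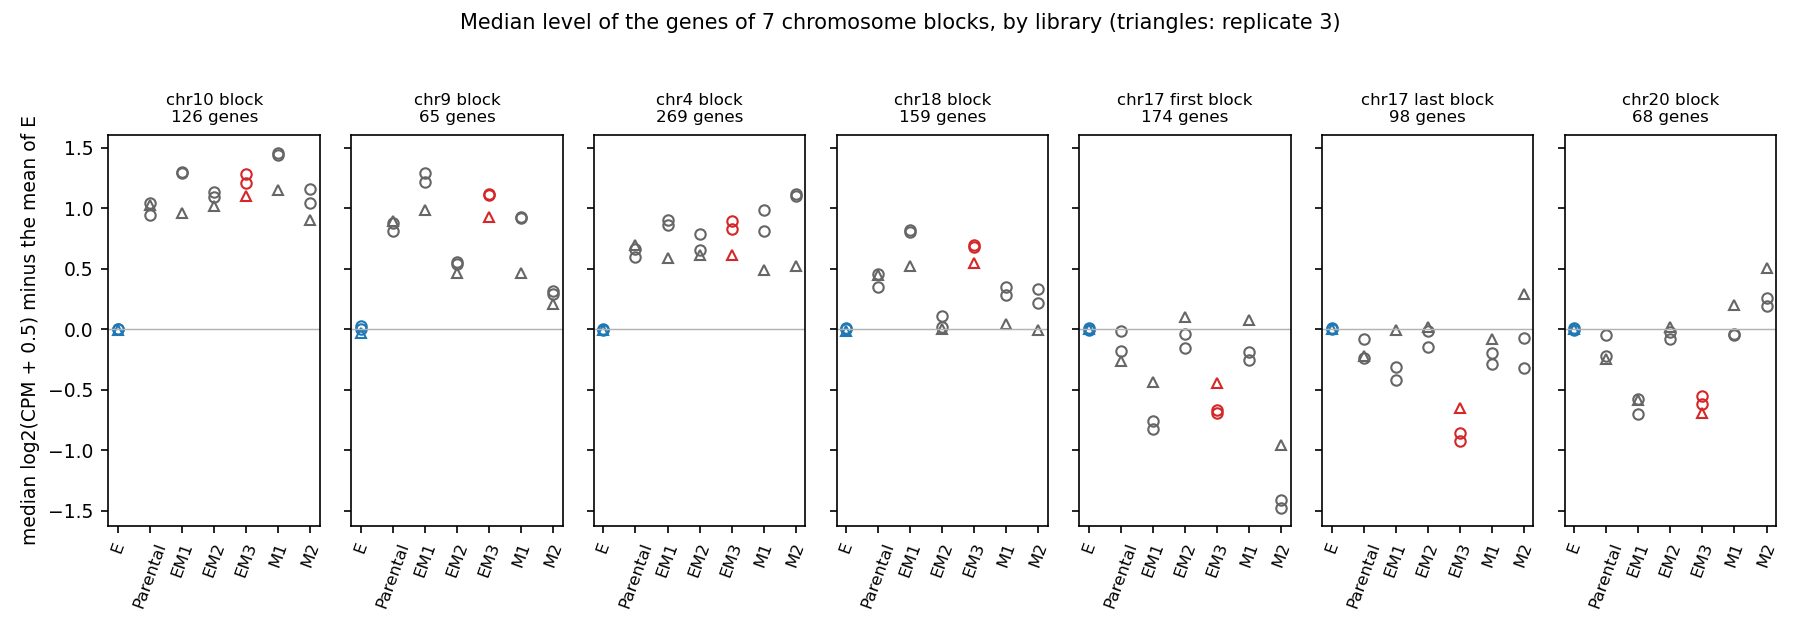
Median over the genes of 7 chromosome stretches of log2(CPM + 0.5) minus the mean of E, for each of the 21 libraries by line (triangles, replicate 3). E lies apart from all other lines in the stretches of chromosomes 10, 9 and 4, and EM3 lies apart in the last stretch of chromosome 17.

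List members that moved were found inside and outside such windows. Over all protein-coding genes, 448 of the 1514 called higher lay in windows of many higher genes and 180 of the 1337 called lower in windows of many lower genes. Of the 15 cholesterol genes that rose, 4 lay in the former, as did 2 of the 4 mesenchymal factors that rose, 2 of the 4 glycolysis and hypoxia genes, and VIM. Of the falls, 2 of the 9 tight junction genes and 2 of the 20 interferon-stimulated genes lay in the latter, and none of the keratins, collagens and S100 genes did.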

How the data were processed

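Gene-level files held 3 values per gene and library. Per the submitters' processing notes, bcl2fastq 2.20.0.422, cutadapt 2.4, STAR 2.7.2b and RSEM 1.3.2 were used with hg38. The annotation release and the use of strand are not given in the sources used here. The deposited expected counts are RSEM's estimates of reads per gene, not whole where reads were shared between genes, and were rounded here. The deposited TPM values and effective lengths came from the authors' RSEM output. Counts were fitted with edgeR 4.0.16 (quasi-likelihood test, robust, TMM, genes kept by filterByExpr) in R 4.3.3 over all 21 libraries, with a mean for each of the 7 lines, whose pooled spread left 14 residual degrees of freedom, and p-values were adjusted by Benjamini-Hochberg. A fit of E and EM3 alone was tried on simulated counts of their 6 libraries. The fit over 21 libraries was not tried this way, and no difference of effective length was simulated. DESeq2 1.42.0 and limma 3.58.1 served as alternatives. Positions and gene types came from GENCODE 29 (GRCh38) and promoters from RefSeq GRCh38.p14. Library sets of short and long effective length were read from the files, since the labels give no batch. Members, gene lists and tests were chosen with earlier results of these data known. Genes named outside the lists were the 12 largest changes and 8 most abundant changed genes in each direction and the genes at 0 in 1 clone with their neighbours, and a few of each are described; EPCAM, MKI67 and others that were not called were named for their roles. A few members of the lists are not reported here.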

Additional observations from a re-analysis of the deposited data

How the results depend on the processing

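Results are for EM3 against E with the reported value first. None of the called genes followed singly changed sign under the alternatives run on it, whereas the medians of some lists near 0 did (collagens, mesenchymal filaments, glycolysis and hypoxia, inflammation and others), and more genes were called lower than higher in some fits. Called genes (3227) numbered 810 when tested against a log2 fold of at least 1, 5904 with the 6 libraries alone, 1295 with library set and replicate block, 808 in EM3 replicate 3 alone, and 1950 to 3310 with 1 library left out. Genes called higher (1744) numbered 351, 3133, 575 and 528 in these fits and 980 to 1823 with 1 library left out. Genes called lower (1483) numbered 459, 2771, 720 and 280, then 871 to 1487, and on log2 TPM 532 (pseudocount 1), 510 (0.1) and 892 (no filter). The 808 genes of EM3 replicate 3 alone became 1332 without a low-count filter, an alternative chosen after seeing the data, and 446 to 449 with 1 E library left out.

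Called simple keratins (4) were 1 at a log2 fold of at least 1, 0 in replicate 3 alone and 3 to 3 with 1 library left out. Tight junction genes (9) were 4 on log2(TPM + 0.1), 5 at that fold, 5 with set and block, 3 in replicate 3 alone and 7 to 8 with 1 library left out. Mesenchymal filament genes (2) were 4 without a filter, with DESeq2, on unfiltered TPM and with the library set, 5 with the 6 libraries, 1 at that fold and in replicate 3, and 1 to 3 with 1 left out. Collagens (7) were 6 to 8 with 1 left out. Mesenchymal factors (7) were 4 on log2(TPM + 1), with or without a filter, 4 at that fold, and 5 to 6 with 1 left out. Epithelial factors (5) were 10 without a filter, 11 with the 6 libraries, 2 at that fold, with the set, with set and block and in replicate 3 alone, and 2 to 5 with 1 left out. Interferon genes (21) were 10 on either TPM scale, 13 on unfiltered TPM, 9 at that fold, 7 in replicate 3 alone and 14 to 22 with 1 left out. Cholesterol genes (15) were 7 at that fold and 12 to 14 with 1 left out. Cell cycle genes (5) were 12 without a filter, 10 on either TPM scale, 2 at that fold, 16 with the 6 libraries, 12 with the block, 2 with set and block, 0 in replicate 3 alone, 8 in replicates 1 and 2, and 3 to 8 with 1 left out. The causes were not tested, apart from fewer libraries in the last kind of fit.

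Whether the replicate numbers pair the libraries was not settled. In their deviations from the clone mean, same-numbered libraries correlated at 0.17, -0.04 and 0.14, and differently numbered ones at -0.20 to 0.11. The deviations within a clone are tied to each other, so these few values cannot decide it. A replicate block gave 4550 calls, 2275 in each direction. Of 240 called genes followed singly, the block kept 239, the library set 216 of 239, DESeq2 238, limma-voom 230 and EM3 replicate 3 alone 99, and 149 kept their call whichever library was left out.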

Other observations

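Other gene groups moved in EM3 in single members. The counts for these groups stand beside 9.36% higher and 7.96% lower of all genes tested, and most lay near those shares. Of 33 tested genes of inflammation, 4 rose and 4 fell. IL33, an alarmin cytokine of epithelia, was at 15, 16.5 and 17.7 TPM in E and at 78.8, 182 and 67.2 TPM in EM3 (2.35 ± 0.45; edgeR, adjusted p = 0.0013). PTGS2, the inducible cyclooxygenase, was at 11.7, 11.7 and 12.4 TPM in E and at 45.8, 26.9 and 166 TPM in EM3, so that EM3 replicate 3 held the most (2.72 ± 0.74; edgeR, adjusted p = 0.0165; up to 0.0655 with 1 library left out). NFKBIA, the inhibitor of NF-kappaB, fell by 1.07 ± 0.30, a call lost without 4 of the 6 libraries (edgeR, adjusted p up to 0.107). Of 51 tested growth factor receptors, ligands and binding proteins, 2 rose and 9 fell. PROS1, a ligand of the TAM receptors, was at 0.18, 0.22 and 0.25 TPM in E and at 1.92, 1.90 and 1.63 TPM in EM3 (2.74 ± 0.36; edgeR, adjusted p = 4.81e-05). IGFBP2, which binds insulin-like growth factors, was at 5.02, 4.32 and 4.09 TPM and at 0.32, 0.27 and 0.13 TPM (-4.44 ± 0.58; edgeR, adjusted p = 4.54e-05). EGFR, the receptor on which many basal-like lines depend, was at 72.1, 72.7 and 74.5 TPM in E and at 71.4, 79.3 and 63.6 TPM in EM3, with overlap.

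Of 29 tested genes of apoptosis, BCL2 and CASP14 rose and BCL2A1, BID, TP53I11 and TP53I3 fell. BCL2A1 lost its call without any 1 library and TP53I3 without 3 of the 6 (edgeR, adjusted p up to 0.14 and 0.0767). BCL2, which guards mitochondria against death signals, was at 0.12, 0.08 and 0.12 TPM in E and at 1.76, 1.25 and 0.58 TPM in EM3 (2.75 ± 0.27; edgeR, adjusted p = 1.83e-06). CASP14, a caspase of cornifying skin, was at 0.38, 0.14 and 0.25 TPM and at 12, 8.77 and 6.46 TPM (4.88 ± 0.96; edgeR, adjusted p = 0.00177), while the cornification genes named above fell. Of 29 tested genes of glycolysis and hypoxia, 4 rose and 2 fell, with a median of -0.01 that changed sign with the scaling. ADM, a peptide hormone induced by low oxygen, was at 8.31, 9.43 and 9.14 TPM in E and at 57.0, 30 and 53.2 TPM in EM3 (2.04 ± 0.50; edgeR, adjusted p = 0.00796). Of the 4 core-binding factor genes (RUNX1, RUNX2, RUNX3 and their partner CBFB), RUNX3 rose, from 12, 7.37 and 7.93 TPM to 17.9, 40.9 and 37.6 TPM (1.24 ± 0.28; edgeR, adjusted p = 0.00431). Of 22 tested Hippo pathway genes, AMOTL1, ARHGEF17 and DLC1 rose and WWTR1, which encodes the co-activator TAZ, fell from 75.3, 92.6 and 90.8 TPM to 43.2, 42.3 and 56.5 TPM (-0.80 ± 0.24; edgeR, adjusted p = 0.0287; up to 0.102 with 1 library left out).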
